A study of Caenorhabditis elegans with 15 samples.

Results

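The glutathione S-transferase family of Caenorhabditis elegans was described in whole worms on day 1 of adulthood. Its members were the genes of the deposited count table whose name starts with gst-, gsto- or gstk- followed by a digit. This gave 49 of 20191 genes, of which 44 were gst, 3 were gsto and 2 were gstk genes. Messenger RNA had been sequenced from 15 libraries of 3 strains, with 5 libraries each. The strains were a double mutant, atfs-1(tm4525);fndc-1(rny14), a single mutant, fndc-1(rny14), and wild type, all in the N2 background. Worms of each strain were kept without stress, and the double mutant carries the same fndc-1 allele as the fndc-1 mutant. FNDC-1 acts as a receptor for mitophagy, the removal of mitochondria by autophagy. ATFS-1 is the factor that turns on a nuclear program when mitochondria are impaired. An atfs-1 single mutant was not analysed here, so what sets the 2 mutant strains apart cannot be told apart from what the atfs-1 allele does by itself.

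Glutathione S-transferases join the tripeptide glutathione to reactive, electrophilic compounds, which makes these compounds soluble and marks them for export. The gsto genes encode the omega class, which has a cysteine in its active site, and the gstk genes encode the kappa class, whose mammalian member lies in mitochondria and peroxisomes. In worms several members are targets of SKN-1, the ortholog of the mammalian Nrf factors, and a gst-4 promoter fused to GFP is the standard reporter of SKN-1 activity.

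Library totals ranged from 46984106 to 61921123 counts. The fndc-1 transcript averaged 7.95 ± 1.27 CPM (counts scaled to a common library total) in the double mutant, 7.39 ± 0.130 CPM in fndc-1 and 40.9 ± 3.83 CPM in wild type (SD, n = 5 each). The atfs-1 transcript ranged from 68.3 to 80.0 CPM in the double mutant, from 87.8 to 99.2 CPM in fndc-1 and from 96.8 to 110 CPM in wild type, which is a limited check because transcript outside a deletion can persist. Libraries of a strain were not alike in markers of stage and tissue, scored as the mean log2 CPM of a list centred on all 15 libraries. Double-mutant library 2 had the lowest germline score (-0.78) and yolk score (-1.64) and the highest cytosolic ribosome score (0.61). It was also lowest for oocyte and eggshell (-0.574), moulting (-0.816), body wall muscle (-0.595) and neurons (-0.491). Double-mutant library 4 had the highest sperm score (2.39) and collagen score (2.15). It was also highest for hypodermis (3.78), moulting (1.38), body wall muscle (0.771) and neurons (0.51). The 6 hypodermis genes (dpy-7, rol-6, sqt-3, dpy-13, bli-1 and bli-2) also encode cuticle collagens, so their score is not a marker separate from the collagen score. They summed to 634.2 CPM in double-mutant library 4 and to 34.16 to 144.1 CPM in the other libraries. Wild-type libraries 2 and 4 had sperm scores of 0.83 and 0.48, and the other wild-type libraries had sperm scores from -2.31 to -2.06. The sperm list held 31 major sperm protein genes, of which 28 were tested and 0 had no count in any library. Their summed level ranged from 203.7 to 1016 CPM in the double mutant, from 106.6 to 512.5 CPM in fndc-1 and from 37.92 to 338.8 CPM in wild type. The 7 germline genes summed to 1465 to 3307 CPM in the double mutant, 2620 to 3471 CPM in fndc-1 and 2533 to 3121 CPM in wild type, and the 6 yolk genes to 22800 to 93970 CPM in the double mutant, 58860 to 86400 CPM in fndc-1 and 67970 to 94340 CPM in wild type. The 78 cytosolic ribosome genes summed to 96730 to 150800 CPM in the double mutant, 93500 to 104500 CPM in fndc-1 and 90900 to 102600 CPM in wild type. The 126 tested of 157 collagen genes summed to 29100 to 43920 CPM in the double mutant, 22180 to 24890 CPM in fndc-1 and 12990 to 21700 CPM in wild type. By this sum double-mutant library 2 was highest (43920 CPM), and library 4, highest by score, had 36720 CPM. The intestine score, for the tissue in which SKN-1 targets are best known, ranged from -0.09 to 0.21 in the double mutant, from -0.17 to 0.27 in fndc-1 and from -0.40 to 0.17 in wild type. The 5 samples of a strain are called biological, but whether each came from its own culture is not given, so p-values reflect only how these samples vary. In whole worms, fewer cells of a type and less RNA per cell cannot be told apart.

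The members were spread over 6 chromosomes (genome build WBcel235), with 26 on chromosome II, 9 on V, 5 on IV, 4 on III, 3 on X and 2 on I. Taking neighbours up to 20000 bases apart as a cluster, 25 members lay in 4 clusters. These were gst-6 to gst-9 on chromosome II (4879891 to 4893573), 9 genes from gst-20 to gst-18 on chromosome II (13608154 to 13630887), 9 genes from gst-26 to gst-35 on chromosome II (15163817 to 15185389), and gst-3, gst-2 and gst-4 on chromosome IV (10139380 to 10143099). How reads that match several genes were counted is not given in the sources used here, so counts of near-identical neighbours are uncertain. The strand setting of the counting is not given either, and exons of 12 members overlap another annotated gene. Of these, gst-4 shares 65 bases with dhs-12 on the same strand. On the other strand, gst-36 shares 93 bases with scav-5, and gsto-1 shares 52 bases with kle-2. Also on the other strand, gst-2 shares 89 bases with K08F4.15, gst-5 shares 12 with nos-1, gst-22 shares 12 with F21H7.12, and gst-44 shares 9 with srd-63. On the same strand, gst-17 and gst-18 share 351 bases with each other, of 594 exonic bases in gst-18. Their low counts, given below, are uncertain for this reason too.

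Levels per length (RPKM, CPM per kilobase of merged exons) differed widely among the members. The most abundant was gst-1 (chromosome III, 9059331 to 9060181), at 269 ± 30.2 RPKM in the double mutant, 233 ± 10.6 RPKM in fndc-1 and 254 ± 13.8 RPKM in wild type (SD, n = 5 each). The next was gst-7 (chromosome II, 4882062 to 4883358), at 170 ± 19.8 RPKM in the double mutant, 166 ± 9.74 RPKM in fndc-1 and 204 ± 15.9 RPKM in wild type. These 2 genes held 47.3 ± 4.07% of the summed CPM of the family in the double mutant, 48.5 ± 4.57% in fndc-1 and 55.9 ± 1.70% in wild type. Below them, gst-27, gst-26, gst-36 and gst-13 averaged 69.6, 47.2, 42.1 and 39.8 RPKM over all 15 libraries. The kappa-class gene gstk-1 averaged 27.4 RPKM, and gst-10, whose enzyme conjugates the lipid peroxidation product 4-hydroxynonenal, averaged 25.7 RPKM. In all, 15 members averaged at least 10 RPKM, 30 averaged at least 1 RPKM and 19 averaged less. A filter on low counts kept 41 members for testing. The other 8 (gst-8, gst-17, gst-18, gst-25, gst-31, gst-34, gst-37 and gsto-2) had at most 16 counts in any library. The gst-37 gene had 2 counts in a wild-type library, 1 count in a double-mutant library and 0 counts in the other libraries, including each fndc-1 library.

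**Figure D1:**
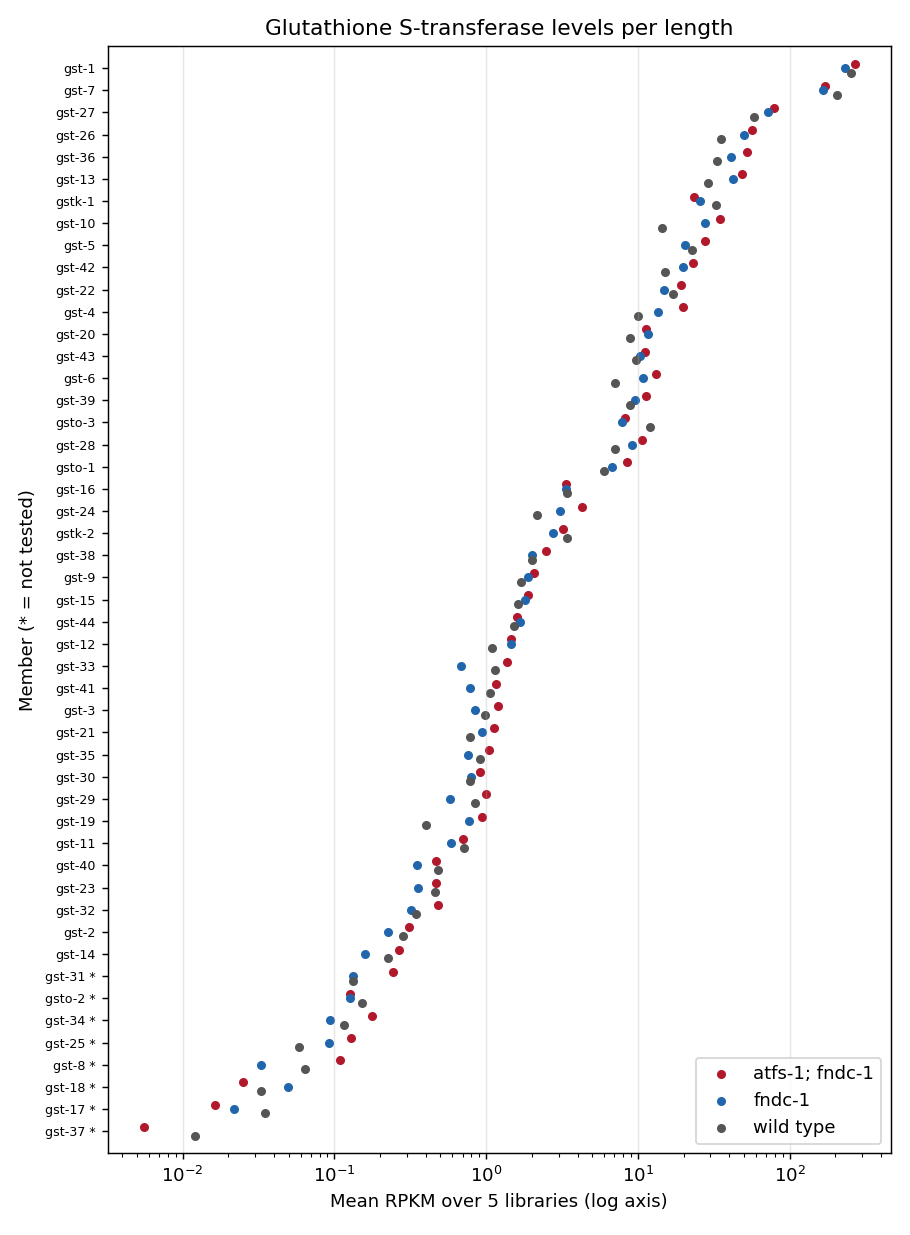
Mean level of each of the 49 members in RPKM over the 5 libraries of a strain, on a log axis, with members in order of their mean over all libraries and an asterisk for the 8 members that were not tested. Points are strain means, and a mean of 0 (gst-37 in fndc-1) has no point. Means over all libraries run from 252 RPKM for gst-1 to 0.00584 RPKM for gst-37.

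Several members exceeded their wild-type level in the double mutant. Of the 41 tested members, 5 rose (gst-10, gst-26, gst-6, gst-24 and gst-13) and 0 fell, at an adjusted p under 0.05 in edgeR's quasi-likelihood test with Benjamini-Hochberg adjustment over 15032 genes. That is 12.2% of the tested members, against 4.71% of all genes tested and 3.71% of all genes counted as higher. With no filter on low counts, which keeps all 49 members, 3 rose (gst-10, gst-26 and gst-6) and the share over all genes was 2.97%. The fitted log2 fold change was above 0 for 34 of 41 tested members, or 82.9%, against 49.7% of all genes, and the median was 0.27 against -0.0023. Without double-mutant library 2, 26 of 41 (63.4%) were above 0, against 49.0% of all genes, and the median was 0.13. The share of members called depended on the wild-type libraries. Without wild-type library 2, 4 or 5, 1 member (2.44%) was called, against 2.81%, 2.63% and 2.64% of all genes, and without wild-type libraries 2 and 4 together it was 2.44% against 6.97%. In the other 23 of 27 settings the share was at least that of all genes.

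The largest rise was that of gst-10 (chromosome V, 2561690 to 2564645). It had 20.4, 33.1, 17.7, 31.8 and 22.3 CPM in double-mutant libraries 1 to 5, against 13.7, 8.04, 14.5, 6.72 and 9.23 CPM in wild-type libraries 1 to 5. Each double-mutant library was above each wild-type library, and double-mutant libraries 2 and 4 were highest. The log2 fold change was 1.26 (SE 0.223, adjusted p = 0.005163, edgeR). It passed the threshold in each of 27 other settings, with log2 fold changes from 0.93 to 1.41 and a highest adjusted p of 0.04031. Without double-mutant libraries 2 and 4 it was 0.93 (adjusted p = 0.03131), and without wild-type libraries 2 and 4, the low pair, it was 1.01 (adjusted p = 0.02258). With the sperm score as a covariate it was 1.41 (adjusted p = 0.01846).

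The gst-26 gene (chromosome II, 15163817 to 15164553) had 32.4, 58.8, 30.3, 33.7 and 37.7 CPM in double-mutant libraries 1 to 5, against 27.3, 22.3, 26.9, 20.5 and 24.1 CPM in wild-type libraries 1 to 5. The strains did not overlap, and double-mutant library 2 stood well above the rest of its strain. Its log2 fold change was 0.67 (SE 0.160, adjusted p = 0.02726, edgeR). Without double-mutant library 2 it was 0.45, still past the threshold (adjusted p = 0.01896). The call was lost without double-mutant library 5, fndc-1 library 2 or wild-type library 2, 4 or 5, with adjusted p from 0.05732 to 0.07789.

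The gst-6 gene (chromosome II, 4879891 to 4881105) had 8.05, 11.5, 7.10, 15.6 and 8.04 CPM in double-mutant libraries 1 to 5, against 6.57, 5.58, 4.85, 5.51 and 4.71 CPM in wild-type libraries 1 to 5. The lowest double-mutant library lay just above the highest wild-type library. Double-mutant library 4, the one with the highest hypodermis, sperm and collagen scores among others, was highest. The log2 fold change was 0.89 (SE 0.212, adjusted p = 0.0275, edgeR). With the sperm score as a covariate it was 0.58 and not called (adjusted p = 0.2798). Without double-mutant libraries 2 and 4 it was 0.49 (adjusted p = 0.1344). The call was also lost without double-mutant library 4 or wild-type library 2, 3, 4 or 5 (adjusted p from 0.05811 to 0.07428).

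The gst-24 gene (chromosome II, 13610443 to 13611366) had 2.48, 5.02, 2.61, 3.26 and 2.51 CPM in double-mutant libraries 1 to 5, against 2.28, 1.2, 1.77, 1.51 and 1.23 CPM in wild-type libraries 1 to 5. The strains did not overlap, and library 2 was again highest in the double mutant while library 1 was highest in wild type. For gst-24 the log2 fold change was 0.99 (SE 0.253, adjusted p = 0.03572, edgeR). The gst-13 gene (chromosome II, 9231457 to 9232344) had 32.1, 54.7, 29.7, 34.7 and 36.8 CPM in double-mutant libraries 1 to 5, against 29.4, 19.5, 23.5, 21.3 and 18.7 CPM in wild-type libraries 1 to 5. Here the strains nearly touched, with double-mutant library 3 just above wild-type library 1. The gst-13 log2 fold change was 0.74 (SE 0.190, adjusted p = 0.03645, edgeR). Neither gene was called without double-mutant library 2, where gst-24 had a log2 fold change of 0.75 (adjusted p = 0.05932) and gst-13 of 0.55 (adjusted p = 0.05665). Both calls were also lost without double-mutant library 4 or 5, fndc-1 library 1 or 2, or wild-type library 2, 3, 4 or 5. Over these the adjusted p ran from 0.0514 to 0.1104 for gst-24 and from 0.05117 to 0.1158 for gst-13. In a fit of only the double mutant and wild type, gst-10 was the only one of 40 tested members called (2.5%, against 1.87% of all genes). It was also the only member called without wild-type libraries 2 and 4, where the share of all genes was 6.97%.

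**Figure D2:**
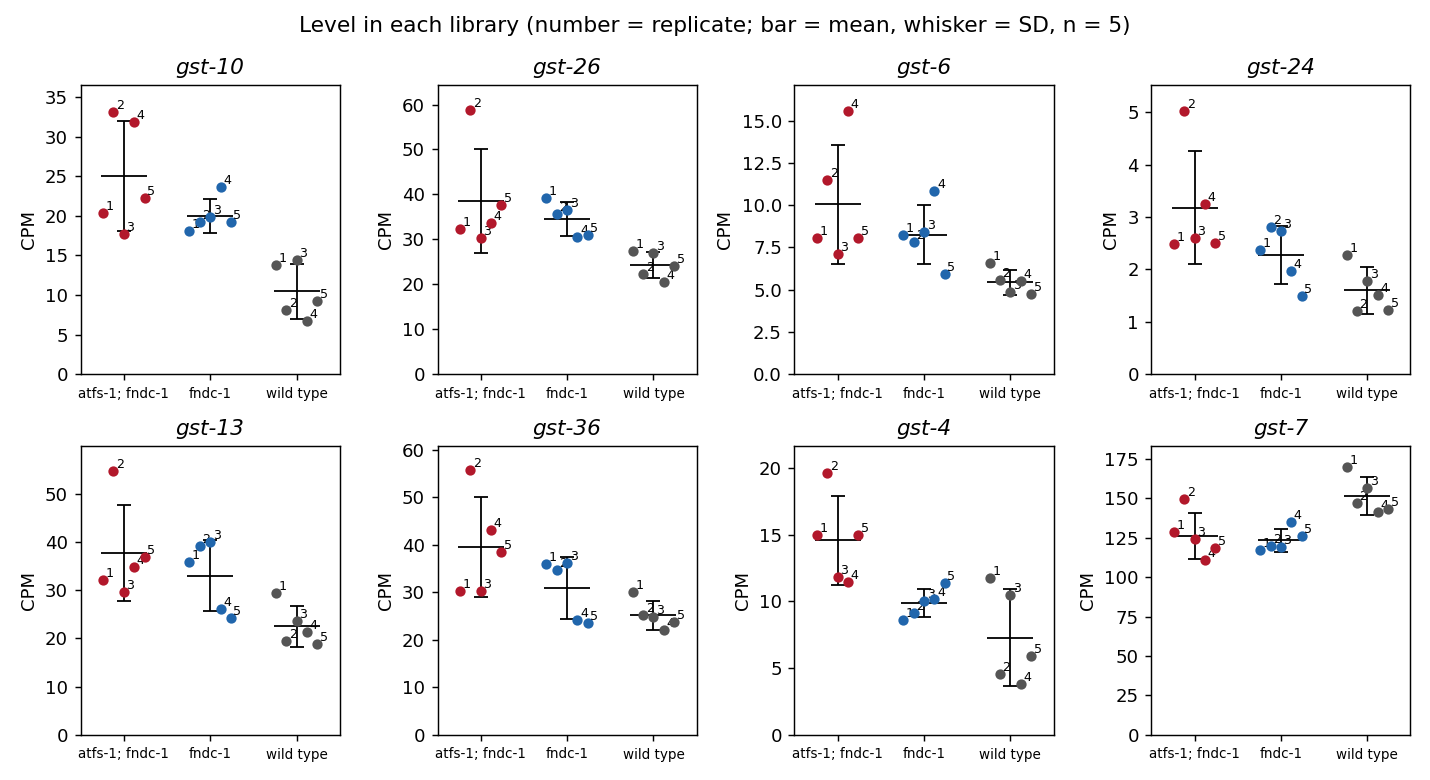
CPM in each library for the 5 members called between the double mutant and wild type, and for gst-36, gst-4 and gst-7. Points are libraries with their replicate number, the horizontal line is the mean and the whisker the SD (n = 5). For gst-10 the double-mutant libraries sit between 17.7 and 33.1 CPM and the wild-type libraries between 6.72 and 14.5 CPM, and double-mutant library 2 is highest in all but the gst-6 panel within its strain.

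Other members lay close to the threshold. The gst-36 gene (chromosome X, 9861646 to 9862960) had 30.2, 55.7, 30.3, 43.1 and 38.4 CPM in double-mutant libraries 1 to 5, against 30.1, 25.2, 24.8, 21.996 and 23.7 CPM in wild-type libraries 1 to 5. The strains were separated by a margin within rounding, and the log2 fold change of 0.65 (SE 0.178) had an adjusted p of 0.05024 in edgeR. The SKN-1 reporter gene gst-4 (chromosome IV, 10142225 to 10143099) had 15.0, 19.6, 11.8, 11.4 and 14.9 CPM in double-mutant libraries 1 to 5, against 11.7, 4.57, 10.5, 3.78 and 5.88 CPM in wild-type libraries 1 to 5. The strains overlapped, because wild-type library 1 exceeded double-mutant library 4. The wild-type libraries themselves fell into a high pair (1 and 3) and 3 low libraries (2, 4 and 5). The gst-4 log2 fold change was 1.00 (SE 0.274, adjusted p = 0.05229, edgeR). Without wild-type libraries 2 and 4 the gst-4 value was 0.64 (adjusted p = 0.1224), and with the sperm score as a covariate it was 1.56 (adjusted p = 0.01097).

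Members of the other classes did not pass the test. The zeta-class gene gst-42, the ortholog of maleylacetoacetate isomerase in tyrosine degradation, averaged 23.6 ± 4.84 CPM in the double mutant and 15.3 ± 3.48 CPM in wild type (SD, n = 5 each; log2 0.62, SE 0.181, adjusted p = 0.06688, edgeR). The omega-class gene gsto-1, which protects worms against oxidative stress, averaged 6.85 ± 2.06 CPM in the double mutant and 4.81 ± 0.786 CPM in wild type (log2 0.51, adjusted p = 0.1759). The members with the most negative values were gsto-3 (log2 -0.55, adjusted p = 0.1183), gstk-1 (log2 -0.49, adjusted p = 0.1062) and gst-7 (log2 -0.26, adjusted p = 0.08723). Without double-mutant library 2, gst-7 (log2 -0.35, adjusted p = 0.005239) and gstk-1 (log2 -0.64, adjusted p = 0.02043) were called lower than in wild type. The most abundant member, gst-1, had a log2 fold change of 0.08 (SE 0.0760, 95% interval -0.07 to 0.23, adjusted p = 0.5378). In DESeq2, with the same filter, 8 members were called higher (the 5 above with gst-36, gst-4 and gst-42) and 3 lower (gst-7, gstk-1 and gsto-3). DESeq2 called 9.13% of all genes, 5.63% higher and 3.49% lower. In limma-voom 6 members were called higher and 0 lower, against 4.31% of all genes (3.56% higher and 0.752% lower).

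**Figure D3:**
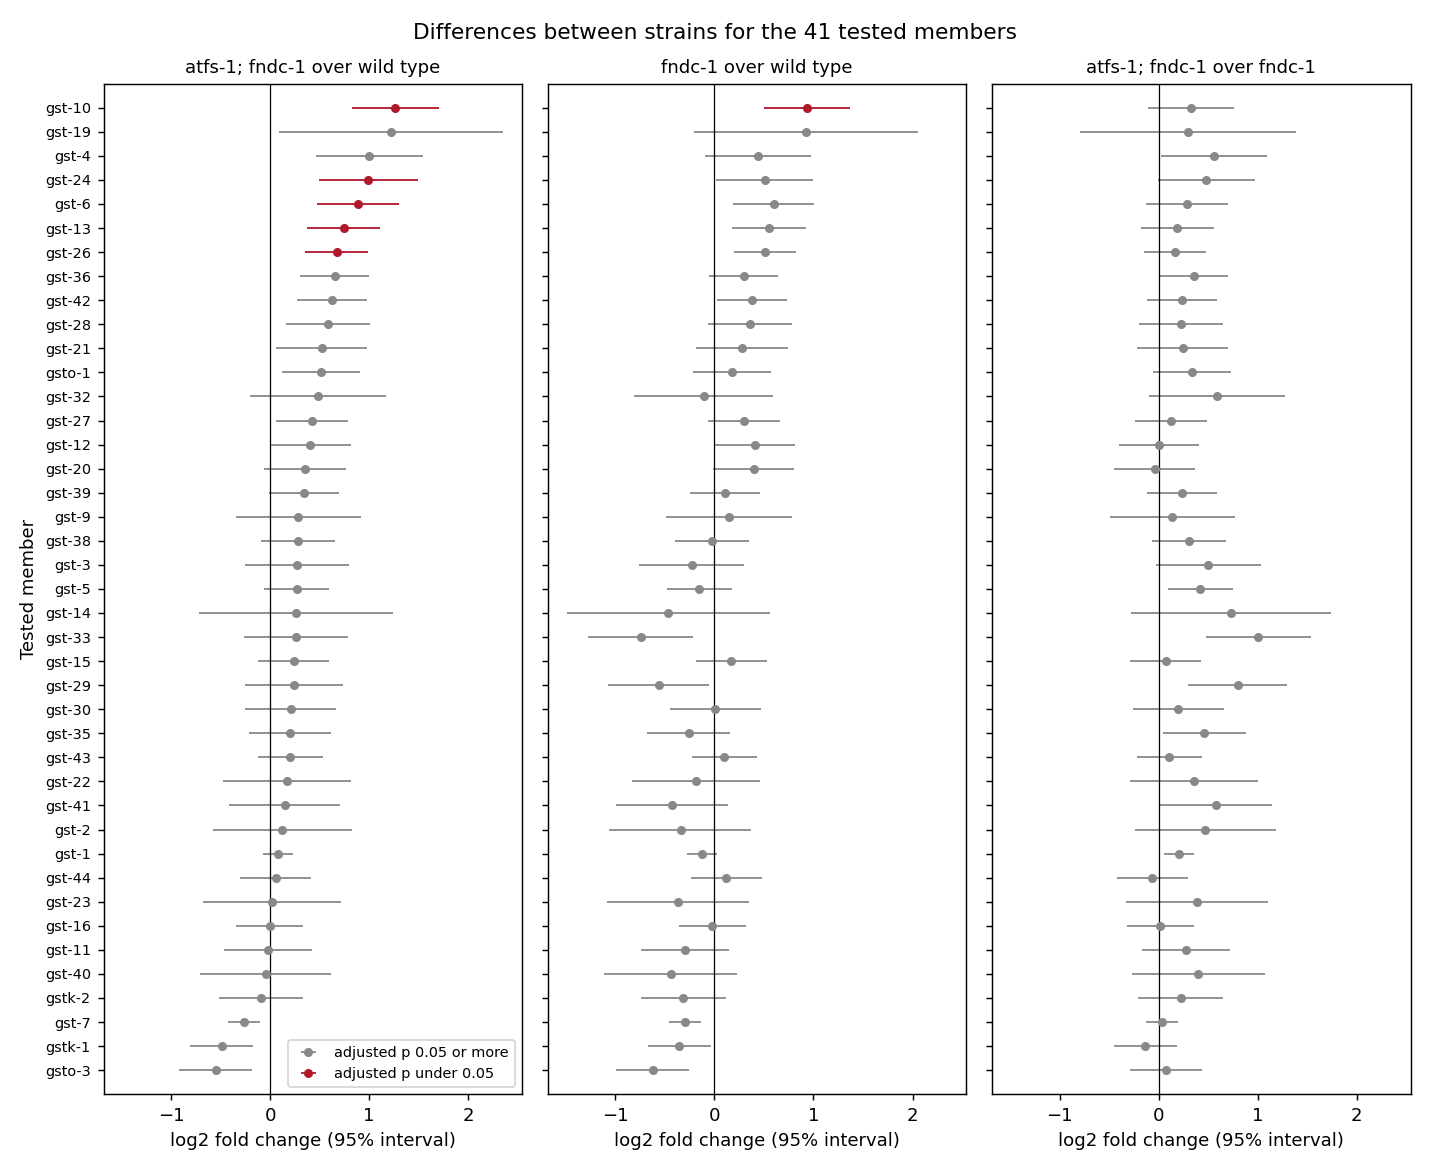
Log2 fold change of each of the 41 tested members with its 95% interval in 3 comparisons, the double mutant over wild type, fndc-1 over wild type, and the double mutant over fndc-1. Red points have an adjusted p under 0.05 (edgeR). Values run from -0.55 (gsto-3) to 1.26 (gst-10) in the left panel, and the middle panel has a single red point, gst-10.

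Particular libraries stood out across the family. Double-mutant library 2 was the highest library of its strain for 34 of the 41 tested members, against 30.0% of all genes tested, and double-mutant library 3 was the lowest for 22, against 19.4%. Wild-type library 1 was the highest of its strain for 30 of the 41, against 24.1% of all genes, and the lowest for 0, against 25%. In fndc-1, libraries 4 and 5 were the lowest pair for 22 of the 41 members, against 32.6% of all genes. Members counted this way share the same libraries and are not independent of each other. Double-mutant library 2 is the library with the low germline and yolk scores and the high ribosome score given above, and the part of these in the level of the members was not tested.

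Wild-type libraries 2 and 4, with the high sperm scores, were the lowest pair of their strain for 8 of 41 tested members, a share near the 16.9% of all genes. These members were gst-4, gst-9, gst-10, gst-19, gst-21, gst-26, gst-42 and gst-44. The same libraries were the highest pair for 2 of 41 members, gst-22 and gsto-3, against 26.5% of all genes. The gsto-3 gene had 14.3 and 16.2 CPM in wild-type libraries 2 and 4 and 7.95 to 9.34 CPM in the others. The low-level gene gst-19 of the second cluster, named after its values were seen, had the largest coefficient of variation of a tested member in wild type (83.6%). It had 0.0871 and 0.0558 CPM in wild-type libraries 2 and 4, from 4 and 3 counts, and 0.263 to 0.616 CPM in the other wild-type libraries. Across tested members the median coefficient of variation was 28.2% in the double mutant, 18.9% in fndc-1 and 20.8% in wild type.

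**Figure D4:**
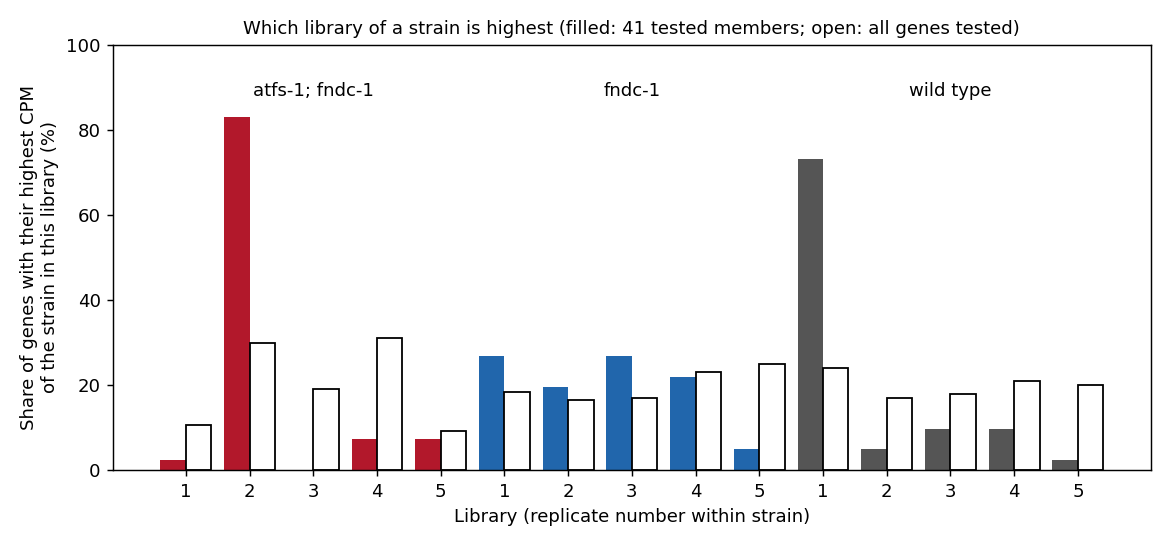
Share of genes, in percent, that have their highest CPM of a strain in a given library. Filled bars are the 41 tested members and open bars are all 15032 genes tested. Double-mutant library 2 holds 34 of the 41 members and wild-type library 1 holds 30, while the fndc-1 libraries hold 2 to 11 each.

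**Figure D5:**
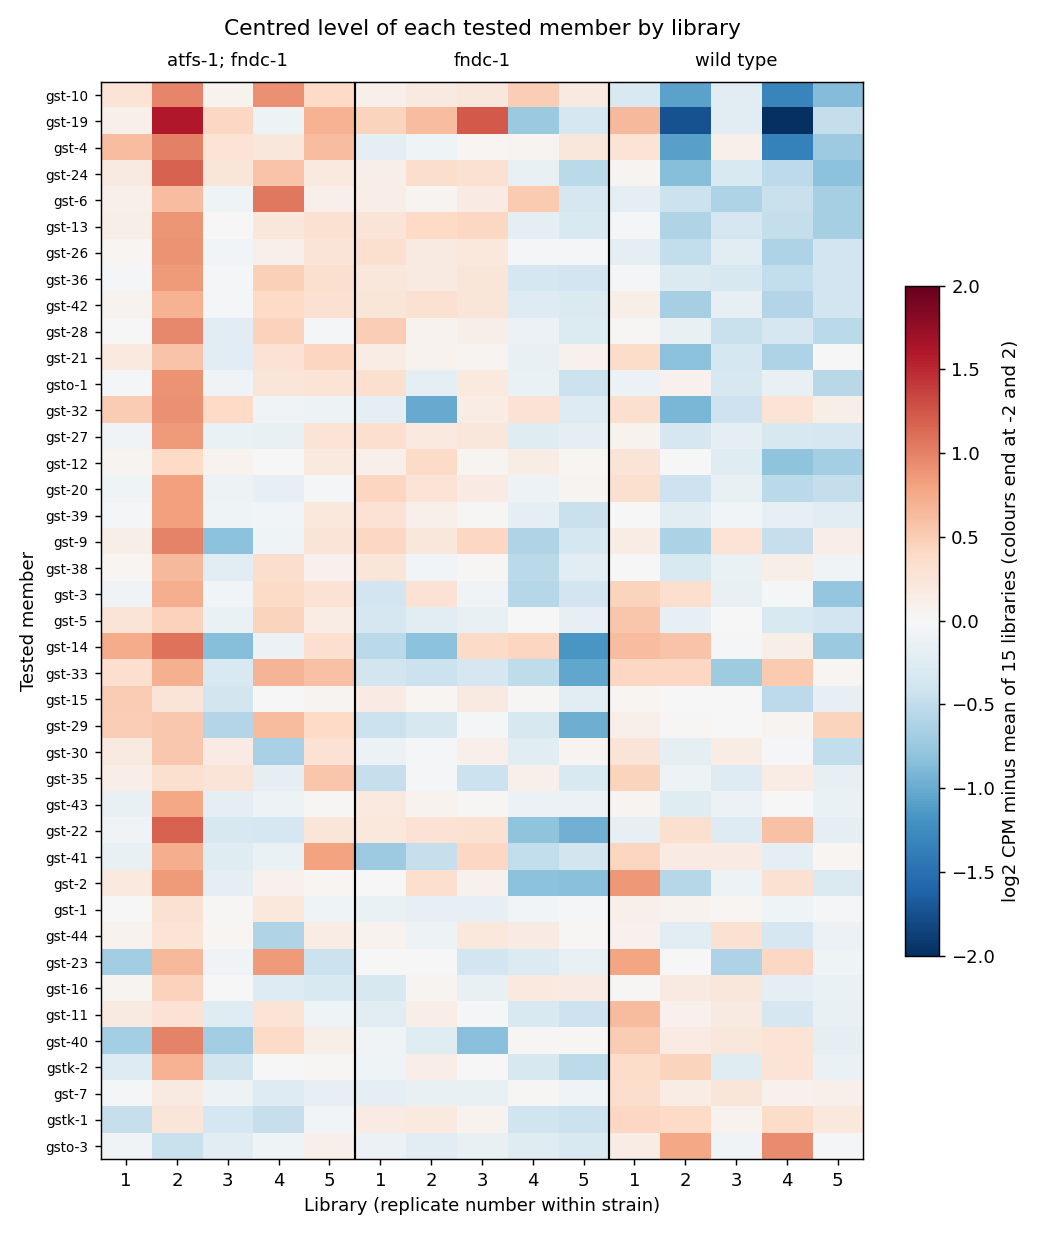
Log2 CPM of each tested member in each library, centred on its mean over the 15 libraries, with colours ending at -2 and 2 and members ordered by their difference between the double mutant and wild type (log2 fold change). The column of double-mutant library 2 is raised for nearly all members. The top rows are low in wild-type libraries 2 and 4, and gsto-3, in the bottom row, is high there.

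In fndc-1 against wild type, gst-10 was the only tested member called, and it rose. This is 1 of 41 tested members, or 2.44%, against 1.87% of all genes tested and 1.18% of all genes counted as higher. It had 18.1, 19.2, 19.8, 23.7 and 19.2 CPM in fndc-1 libraries 1 to 5, against the wild-type values from 6.72 to 14.5 CPM given above, with no overlap between the strains. The log2 fold change was 0.94 (SE 0.222, adjusted p = 0.04373, edgeR). The call held in 12 of 27 other settings, with log2 fold changes from 0.69 to 1.08. It was lost without any of the 5 fndc-1 libraries in turn, without wild-type library 2, 4 or 5, and without double-mutant library 1 or 5 (adjusted p from 0.05608 to 0.1212). It was also lost with no filter on low counts (adjusted p = 0.06138) and with upper-quartile factors (adjusted p = 0.06982). In limma-voom gst-10 was again the only member called, against 1.75% of all genes. Without wild-type libraries 2 and 4 the value was 0.69 (adjusted p = 0.1474).

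Over all 41 tested members, gst-10 included, neither direction prevailed in this comparison, but the split depended on the setting. The fitted log2 fold change was above 0 for 21 of 41 members, or 51.2%, against 50.6% of all genes, and the median was 0.0075 against 0.0034. With at least 1 CPM in 5 libraries it was 19 of 29 (65.5%, against 50.6%), with a median of 0.18. Without fndc-1 libraries 4 and 5 it was 24 of 41 (58.5%, against 49.8%), also with a median of 0.18. Without wild-type libraries 2 and 4 it was 19 of 41 (46.3%, against 55.8%), and with no filter 23 of 49 (46.9%, against 52.3%). At an unadjusted p under 0.05 there were 9 members, against 14.9% of all genes. The gst-7 gene had 118.0, 120.0, 119.0, 135.0 and 126.0 CPM in fndc-1 libraries 1 to 5, against 170.0, 147.0, 156.0, 141.0 and 143.0 CPM in wild-type libraries 1 to 5. All fndc-1 libraries were below all wild-type libraries, with a log2 fold change of -0.30 (SE 0.0821) that missed the threshold (adjusted p = 0.08764, edgeR). It was called lower when double-mutant library 2 was left out (log2 -0.31, adjusted p = 0.009393), when libraries 2 and 4 of that strain were left out, with fits of only the strains compared and in DESeq2. The gsto-3 gene had 7.75, 7.18, 7.53, 7.12 and 6.77 CPM in fndc-1 libraries 1 to 5, against 9.34, 14.3, 7.95, 16.2 and 8.18 CPM in wild-type libraries 1 to 5. Its strains did not overlap either, and its wild-type mean was raised by libraries 2 and 4 (log2 -0.62, SE 0.188, adjusted p = 0.1176). Without those libraries the gsto-3 value was -0.21 (adjusted p = 0.4686).

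In the double mutant, 6 tested members were above wild type without overlap (gst-10, gst-26, gst-6, gst-24, gst-13 and gst-36), or 14.6% against 4.42% of all genes, and 0 were below it, against 2.22%. In fndc-1, 2 were above wild type without overlap (gst-10 and gst-26), or 4.88% against 4.0% of all genes, and 3 were below it (gst-7, gsto-3 and gst-29), or 7.32% against 4.03%. The 2 comparisons share the wild-type libraries, so their values are set side by side only. The members called in the double mutant had log2 fold changes in fndc-1 over wild type of 0.51 (gst-26, adjusted p = 0.1342), 0.60 (gst-6, adjusted p = 0.1875), 0.51 (gst-24, adjusted p = 0.3694) and 0.55 (gst-13, adjusted p = 0.1704), besides gst-10.

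In the double mutant against fndc-1, edgeR called 0 of 41 members, against 0.978% of all genes tested (0.738% higher and 0.239% lower). At an unadjusted p under 0.05 there were 5 members, against 11.4% of all genes. DESeq2 called 1 member, gst-33, which is 2.44% of the members against 2.41% of all genes, and limma-voom called 0, against 0.951%. The gst-33 gene (chromosome V, 3467451 to 3468562) had 1.02, 1.33, 0.633, 1.29 and 1.21 CPM in double-mutant libraries 1 to 5, against 0.610, 0.581, 0.621, 0.545 and 0.369 CPM in fndc-1 libraries 1 to 5. The double-mutant libraries were above the fndc-1 libraries, though library 3 of the double mutant exceeded fndc-1 library 3 only slightly. The log2 fold change was 1.01 (SE 0.271, adjusted p = 0.1284, edgeR; adjusted p = 0.02624, DESeq2). In wild type gst-33 had 1.07, 1.07, 0.472, 1.15 and 0.821 CPM, which overlapped both mutants.

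The gst-4 gene was also higher in each double-mutant library than in each fndc-1 library, by a small margin. Its fndc-1 values were 8.62, 9.16, 10.02, 10.2 and 11.4 CPM, against 11.4 CPM and more in the double mutant, with a log2 fold change of 0.56 (SE 0.272, adjusted p = 0.4548, edgeR). Without overlap, 2 tested members were above fndc-1 in the double mutant (gst-33 and gst-4), against 2.67% of all genes, and 0 were below it, against 1.54%. The gst-29 gene had a log2 fold change of 0.80 (SE 0.258, adjusted p = 0.2406), with double-mutant library 3 at 0.345 CPM, below most fndc-1 libraries. For gst-10 the difference between the mutants was 0.33 (SE 0.219, adjusted p = 0.551), with a 95% interval from -0.10 to 0.76. The fitted value was above 0 for 37 of 41 members, or 90.2%, against 52.3% of all genes, with a median of 0.27 against 0.017. Without double-mutant library 2 this was 28 of 41 members (68.3%, against 53.0% of all genes) with a median of 0.13. Without double-mutant libraries 2 and 4 it was 26 of 42 (61.9%, against 47.1%) with a median of 0.05. Without fndc-1 libraries 4 and 5 it was 31 of 41 (75.6%, against 46.4%) with a median of 0.12.

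The summed level of the 49 members was 634, 916, 606, 683 and 661 CPM in double-mutant libraries 1 to 5, 644, 633, 638, 598 and 576 CPM in fndc-1 libraries 1 to 5, and 699, 603, 623, 574 and 568 CPM in wild-type libraries 1 to 5. The strains overlapped, and double-mutant library 2 stood apart from the rest. Without gst-1 and gst-7 the sum averaged 372 ± 94.6 CPM in the double mutant, 320 ± 42.6 CPM in fndc-1 and 271 ± 33.2 CPM in wild type (SD, n = 5 each). The double mutant ranged from 291 to 533 CPM, fndc-1 from 266 to 355 CPM and wild type from 241 to 327 CPM. No test was made on the sums.

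By position, each of the 3 clusters on chromosome II held 1 member that rose in the double mutant over wild type, of 3, 7 and 7 tested. Of all tested members 12.2% rose, and 3.71% of all genes were called higher. In the cluster of gst-6 to gst-9 the member that rose was gst-6, while gst-7, the next gene along the chromosome, had a value of -0.26. In the cluster of 9 genes around gst-24, the log2 fold changes of the 7 tested members ran from -0.0047 (gst-16) to 1.22 (gst-19, SE 0.575, adjusted p = 0.236). In the cluster of 9 genes beginning with gst-26, all 7 tested members were above 0, from 0.20 (gst-35) to 0.67 (gst-26). Over all 41 tested members 82.9% were above 0, and 49.7% of all genes were. In this cluster gst-27, the third most abundant member of the family, had 0.42 (SE 0.185, adjusted p = 0.2129, edgeR). On chromosome IV, gst-3 and gst-2 beside gst-4 had 0.27 and 0.12. The gst-10 and gst-13 genes lay outside the clusters.

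The other steps of glutathione use showed few changes. EdgeR called 4.71% of all genes in the double mutant over wild type, 1.87% in fndc-1 over wild type and 0.978% between the mutants. At such shares a short list often holds no call. Of 3 genes for making and reducing glutathione, 0 were called in any comparison by edgeR, DESeq2 or limma-voom, 0 had an unadjusted p under 0.05, and their lowest adjusted p was 0.456 (edgeR). The gcs-1 gene, which encodes glutamate-cysteine ligase, averaged 104.1 ± 27.3 CPM in the double mutant, 111.9 ± 4.77 CPM in fndc-1 and 105.6 ± 8.59 CPM in wild type (SD, n = 5 each). Double-mutant library 2 had 56.8 CPM of gcs-1, and the other libraries of that strain had 109 to 126 CPM. The gsr-1 gene, glutathione reductase, averaged 215 ± 9.77 CPM in the double mutant, 215 ± 7.56 CPM in fndc-1 and 225 ± 5.39 CPM in wild type. The skn-1 gene averaged 208 ± 67.2 CPM in the double mutant, 235 ± 21.7 CPM in fndc-1 and 243 ± 14.3 CPM in wild type. Its double-mutant minimum, in library 2, was 92.4 CPM, against 213 to 260 CPM in the other libraries of that strain. Of the 8 genes listed for SKN-1 regulation 0 were called by the 3 tools and 0 had an unadjusted p under 0.05 (lowest adjusted p = 0.3393, edgeR). None of 7 glutaredoxin and thioredoxin reductase genes, 4 other glutathione-using enzymes and 8 mrp conjugate exporters was called in any comparison by these tools. Among the exporters, mrp-1 had log2 fold changes against wild type of 0.42 in the double mutant (adjusted p = 0.1191) and 0.45 in fndc-1 (adjusted p = 0.1435). Its fndc-1 libraries (39.3 to 49.3 CPM) were all above its wild-type libraries (31.2 to 35.0 CPM). Double-mutant libraries 1, 3, 4 and 5 (43.9, 44.6, 54.8 and 53.2 CPM) were above wild type too, and only library 2 was below. Of the other exporters, only mrp-5 was above wild type in fndc-1 without overlap, and none was below. Over these 3 lists, 3 tests in fndc-1 or the double mutant against wild type and 2 in the double mutant against fndc-1 had an unadjusted p under 0.05.

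Of 8 glutathione peroxidase genes, 1 rose in the double mutant over wild type, where 3.71% of all genes were called higher. It was gpx-5, with 39.7, 54.3, 36.5, 40.1 and 47.5 CPM in double-mutant libraries 1 to 5, against 29.8, 17.9, 32.0, 13.3 and 17.5 CPM in wild-type libraries 1 to 5. The strains did not overlap, and wild-type libraries 1 and 3 were above the other 3, as in gst-4 and gst-10. The log2 fold change was 0.98 (SE 0.231, adjusted p = 0.02524, edgeR), and it was 0.73 without wild-type libraries 2 and 4 (adjusted p = 0.08613). The call was also lost without double-mutant library 5 or wild-type library 2, 4 or 5 (adjusted p from 0.0579 to 0.08185). Of 4 genes that act with gst-42 in tyrosine degradation, 1 rose in the double mutant over wild type, against the same 3.71%. It was fah-1, fumarylacetoacetase, the step after that of gst-42, with 108, 137, 104.4, 112 and 122 CPM in double-mutant libraries 1 to 5, against 94.0, 75.0, 91.5, 72.6 and 80.5 CPM in wild-type libraries 1 to 5. The strains did not overlap (log2 0.50, SE 0.0917, adjusted p = 0.006684, edgeR), and the call held in 26 of 27 other settings. The rest of this list did not move one way. In the double mutant over wild type, hpd-1 was at 0.41 (adjusted p = 0.1486), hgo-1 at 0.14 (adjusted p = 0.5883) and tatn-1 at -0.31 (adjusted p = 0.3447, edgeR). In the double mutant over fndc-1, tatn-1 was at -0.47 (adjusted p = 0.3685). In fndc-1 over wild type, gpx-5 had a value of 0.79 (adjusted p = 0.105) and fah-1 of 0.32 (adjusted p = 0.09867), and DESeq2, which called 5.22% of all genes there, called both higher. The medians of both lists in the double mutant over wild type were 0.09 and 0.27, against -0.0023 over all genes.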

How the data were processed

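The table that the authors deposited holds unnormalized counts of reads per gene in 15 libraries. The submitters' processing notes name Trimmomatic 0.36, STAR 2.6.0c, Subread 1.6.1 and featureCounts, with build WBcel235. Per the labels' protocols, libraries were made with a TruSeq RNA kit, and TruSeq Stranded mRNA is named as well. Genes kept by filterByExpr (15032 of 20191) were scaled by TMM and tested with edgeR 4.0.16 (R 4.3.3), in a two-sided quasi-likelihood F-test over all 15 libraries with strain as the only term, Benjamini-Hochberg adjustment and a threshold of 0.05. CPM used TMM-scaled totals, RPKM used merged exons of Ensembl release 115, and log2 CPM used a prior count of 2. The SE is the log2 fold change over the square root of F, and intervals are 95% normal intervals. Pairs of libraries of a strain differed by at least 8.07 in chi-square per gene, so none repeated another.

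Values are given, in full or in part, for members called in any comparison, the 5 highest by RPKM, the 3 with the smallest p in each comparison, and gst-4, gst-42, gsto-1 and gstk-1. Other members given with values or for a pattern over libraries (gst-2, gst-3, gst-5, gst-9, gst-16, gst-19, gst-21, gst-22, gst-35, gst-37 and gst-44) were chosen after their values were seen. The members, lists and settings were chosen with earlier results of these data known. Other settings were upper-quartile or RLE factors, limma-voom 3.58.1, DESeq2 1.42.0, no filter, at least 1 CPM in 5 libraries, only the strains compared, a replicate block, the sperm score as a covariate, and libraries left out.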

Additional observations from a re-analysis of the deposited data

Results flagged for a closer look

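Libraries that lay far from the other 4 of their strain were sought among 48 sets of 5 values. These were the 16 members chosen by the rules above, in each of 3 strains. The gap to the nearest library over the whole range was set against Dixon's critical value of 0.71. In 5 sets a library passed it. Chance gives about 1 in 20 for independent sets of normal values. These sets share the same libraries, and some members were picked by their p, so the count cannot be set against that rate. In the double mutant, library 2 was far above the other libraries for gst-26 (58.8 CPM), gst-13 (54.7 CPM) and gsto-1 (10.4 CPM). Library 3 of the double mutant was far below the others for gst-29 (0.345 CPM). In wild type, library 5 was far above the others for gst-29 (0.739 CPM). Double-mutant library 2 had the lowest germline and yolk scores and the highest cytosolic ribosome score, and the part of these in the 3 high values was not tested.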

How the results depend on the processing

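In the double mutant against wild type, members past the threshold were counted with higher and lower calls pooled. Their count is followed in brackets by the share of all genes called. It was 5 with RLE factors (4.52%), 6 with upper-quartile factors (5.29%), 6 with limma-voom (4.31%), 7 of 29 members of at least 1 CPM in 5 libraries (6.48%), 11 with DESeq2 (9.13%), 3 with no filter (2.97%), 8 with the sperm score as a covariate (4.52%), 1 with only the strains compared (1.87%) and 3 without double-mutant libraries 2 and 4 (3.24%). It was 1 without wild-type libraries 2 and 4 (6.97%) and 6 without fndc-1 libraries 4 and 5 (4.24%), both chosen after seeing the data. Leaving out each library in turn gave 1 to 8 (2.63% to 7.65%). Of these calls, 3 were lower with DESeq2, 1 with the sperm score as a covariate and 1 without double-mutant libraries 2 and 4. Without double-mutant library 2 alone, 3 were higher and 2 lower. The members' share was below that of all genes in 4 of 27 settings, those without wild-type library 2, 4 or 5 or without libraries 2 and 4 of that strain. In fndc-1 against wild type the count of 1 became 0 with upper-quartile factors (1.63%) or no filter (1.09%), 4 with DESeq2 (5.22%), 3 with the sperm score as a covariate (4.26%), 3 with only the strains compared (3.98%), 4 without double-mutant libraries 2 and 4 (7.33%), 0 without wild-type libraries 2 and 4 (0.751%), 0 without fndc-1 libraries 4 and 5 (2.46%), and 0 to 3 with each library left out (0.963% to 4.87%). Of the calls in fndc-1 against wild type, 2 were lower with DESeq2, 1 with the sperm score as a covariate and 1 with only the strains compared. Another 1 was lower without double-mutant library 2, and 1 without double-mutant libraries 2 and 4. In the double mutant against fndc-1 the count was 0 in each setting except for 1 with DESeq2 (2.41%). The causes were not tested. Over the whole table, calls ranged from 275 to 1372 (708), from 115.0 to 1116 (281) and from 103 to 363 (147) in these 3 comparisons, with the count as reported in brackets. Upper-quartile factors shifted the median over all tested genes to 0.08 (log2) in the double mutant against wild type.

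With the replicate number as a block, 3 members were called in the double mutant against wild type (3.37% of all genes), 0 in fndc-1 against wild type (1.03%) and 0 in the double mutant against fndc-1 (0.792%). The labels do not say whether the numbers pair the samples, and correlations cannot settle it. Deviations of libraries with the same number correlated from -0.591 to 0.664, 7 of 15 pairs were over 0.1, and own numbers correlated best in 8 of 30 cases. Correlations were above 0 between all strains for number 4 (0.43, 0.539 and 0.664) and number 3 (0.188, 0.433 and 0.0575).

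Signs turned mostly in the double mutant against fndc-1, where no member was called by edgeR. Without double-mutant libraries 2 and 4 the log2 values were -0.00108 for gst-10, -0.0191 for gst-13, -0.0575 for gst-26, -0.102 for gst-6, -0.00888 for gst-7, -0.0622 for gst-27 and -0.00711 for fndc-1. With each library left out in turn, the range was -0.0521 to 0.227 for gst-26, -0.0441 to 0.094 for gst-7, -0.103 to 0.226 for gst-27, -0.00539 to 0.133 for gsto-3 and -0.00711 to 0.151 for fndc-1. Without fndc-1 libraries 4 and 5 the log2 values were -0.0433 for gst-13, -0.0579 for gst-27 and -0.0277 for gpx-5. With only the strains compared gst-7 was at -0.0020, and gsto-3 was at -0.0664 with the sperm score as a covariate. In the double mutant against wild type, gst-1 was at -0.0554 without double-mutant libraries 2 and 4. Members under about 1 CPM rest on few counts, and 8 were too low to test.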

Other observations

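The gst-22 gene had 11.03, 26.1, 9.26, 9.11 and 13.6 CPM in double-mutant libraries 1 to 5, 13.3, 14.1, 14.2, 6.61 and 5.90 CPM in fndc-1 libraries 1 to 5, and 10.2, 14.4, 9.61, 17.2 and 10.03 CPM in wild-type libraries 1 to 5. Its strains overlapped, with double-mutant library 2 high and fndc-1 libraries 4 and 5 low. The gst-5 gene had 20.0, 23.05, 15.2, 22.8 and 18.5 CPM in double-mutant libraries 1 to 5, 13.2, 14.4, 15.0, 16.8 and 14.9 CPM in fndc-1 libraries 1 to 5, and 24.7, 14.9, 16.6, 13.5 and 12.8 CPM in wild-type libraries 1 to 5. Here wild-type library 1 was the highest of all 15. For gst-5 the double mutant over fndc-1 had a log2 fold change of 0.42 (SE 0.167, adjusted p = 0.3502, edgeR). Both genes were chosen after their values were seen.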
